A study of Mus musculus with 11 samples.

Results

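T cell and intraepithelial lymphocyte genes were followed in the colon mucosa of mice fed with or without inulin. The set is given by gene name, with no threshold on array values, as Cd3e, Cd3g, Cd4, Cd8a, Gzma, Gzmb, Cxcr6, Itgae, Cd160 and Foxp3. A gene was taken as measured where a probe set of the array carried its symbol alone, and of several such probe sets the one with the greatest average over the 11 arrays stood for it. By that rule 9 of the 10 genes were measured, among 18820 genes in all, each by 1 probe set. The probe sets that carry Foxp3, the master regulator of regulatory T cells, also carry the neighbouring gene Ccdc22, so no value is given for it.

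All mice were male C57BL/6J animals of 12 weeks, given 2 weeks to adapt to a low fat diet before the groups were formed. The control group (n = 5) stayed on that diet, and the inulin group (n = 6) ate it with 10% by weight of corn starch exchanged for inulin, a fructan fibre that reaches the colon and feeds its bacteria. After 10 days the mice were fasted overnight, given 1 g of their diet and killed 4 h later per the treatment protocol, while the design text mentions only the fast. The mice carried no transgene or deletion in the labels, and each sample is a separate mouse, so the spread within a group is that between animals.

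T cells recognise antigen through a receptor whose CD3 chains pass the signal inward, and the coreceptors CD4 and CD8 tie them to MHC class II or class I. In the gut many T cells lie between the epithelial cells as intraepithelial lymphocytes. Many of these carry CD8, store granzymes in cytotoxic granules, and are held in place by the integrin CD103, which binds E-cadherin on epithelial cells. They are a small fraction of scraped mucosa. In such bulk RNA, fewer cells of a type and less RNA per cell cannot be told apart.

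The arrays were alike in distribution, with lower quartiles from 3.72 to 3.79 and medians from 5.38 to 5.46 on the log2 scale. Markers of colon epithelium averaged 11.84 to 11.94 in control and 11.84 to 12.05 in inulin mice, above the arrays' upper quartiles of 7.71 to 7.75. Inulin 5 stood apart on the first principal component, at 37.0 against -12.3 to 13.5 in the other mice, and had the highest mean of B cell and follicle markers, 7.74 against 4.85 to 6.48 in the others. Fat cell markers were higher under inulin in 8 of 8 genes, with means of 5.18 to 7.66 against 4.97 to 5.52 in control, and a median difference of 1.34. Of the 8, 7 had an unadjusted p under 0.05, as did 13.5% of all genes, and 0 passed the adjusted test in limma. The pancreas marker mean was highest in inulin 3, at 10.58 against 6.19 to 8.44 in the other mice. Apart from the covariate fits given below, the part of these markers in the results was not tested.

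None of the 9 measured lymphocyte genes passed the test of inulin against control. In limma, which tests each gene on the log2 scale and adjusts p-values over all 18820 genes, 0 of 9 passed an adjusted p of 0.05, where 17 of all genes did (0.0903%, and between 7 and 98 genes when 1 mouse was left out). At an unadjusted p under 0.05 the count was again 0 of 9, against 2547 of all genes (13.5%), and the two-sided exact permutation test over the 462 divisions of the mice gave 0 of 9 as well. Of the 9 genes 3 had the higher mean under inulin and 6 the lower, where 51.4% of all genes were higher and 48.6% lower. The split was 1 to 8 with the mean of the fat markers as a covariate, 5 to 4 without control 2, and 4 to 5 with quantile normalization, where Cd3e turned to 0.0098. The median difference of the 9 was -0.08, beside 0.0039 over all genes, and it was -0.22 with the fat covariate and 0.020 without control 2. No gene of the 9 had groups that did not overlap, which held for 410 of all genes (2.18%). Each of the 95% intervals included no change, and the widest of them, for Gzmb, ran from a 0.922-fold to a 1.74-fold ratio of inulin to control.

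**Figure D1:**
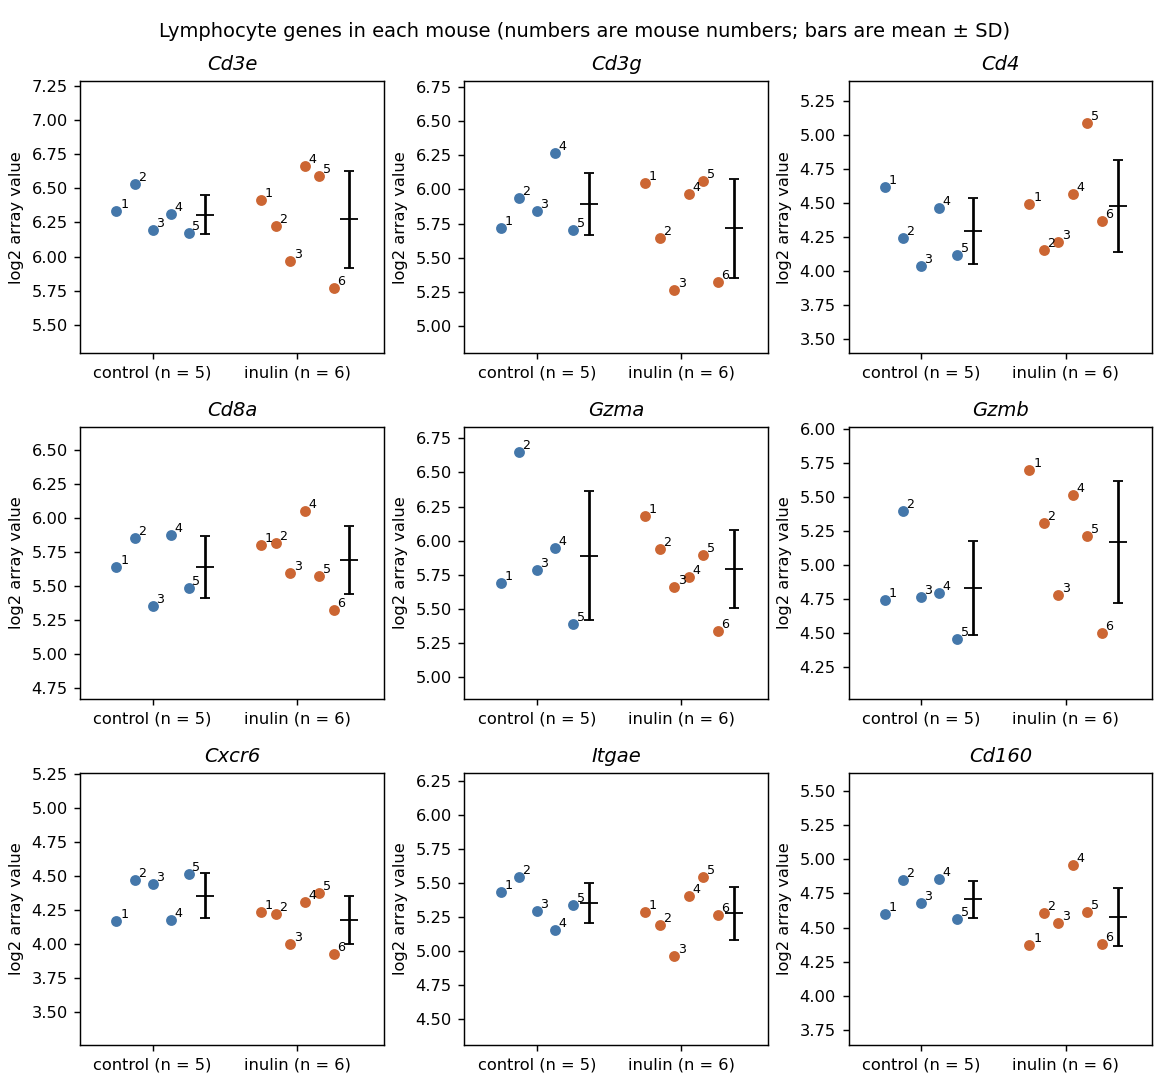
Log2 array values (vertical axes, each spanning 2 log2 units) of the 9 measured genes in 5 control (blue) and 6 inulin (orange) mice, with mouse numbers beside the points and black bars for mean ± SD. The groups overlap in every panel, and inulin 6 is the lowest mouse for Cd3e, Cd8a, Gzma and Cxcr6.

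**Figure D2:**
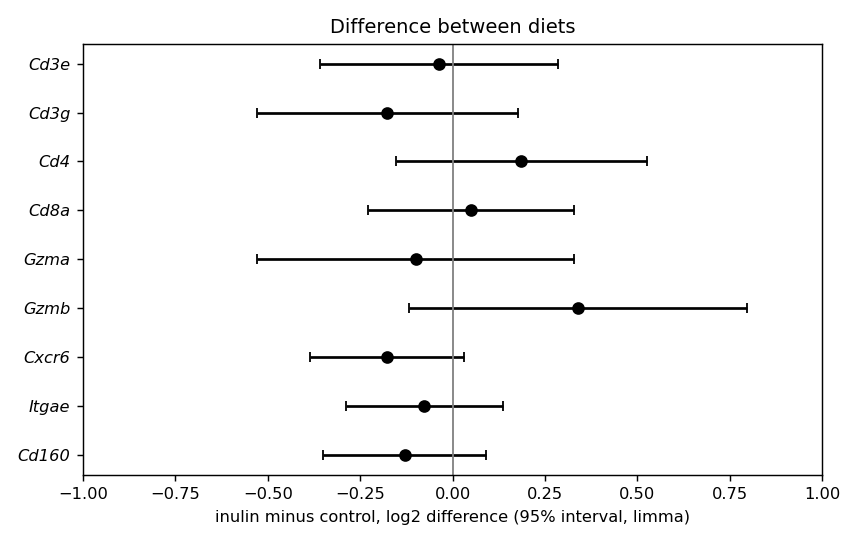
Inulin minus control on the log2 scale (horizontal axis) for each gene, with the 95% interval from limma. All 9 intervals cross 0, from the narrow one of Cxcr6 (-0.39 to 0.03) to the wide one of Gzmb (-0.12 to 0.80).

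Cd3e and Cd3g encode the epsilon and gamma chains of CD3, which every T cell needs to bring its receptor to the surface. Cd3e had log2 values of 6.33, 6.53, 6.19, 6.31 and 6.17 in control mice 1 to 5, and a lowest, median and highest value of 5.77, 6.32 and 6.67 in the inulin mice. Both the highest mice (inulin 4 and 5) and the lowest (inulin 3 and 6) were inulin mice, so the inulin values enclosed the control range. The difference was -0.04 ± 0.15 (SE), a ratio of 0.975 with a 95% interval from 0.780 to 1.22 (limma adjusted p 0.94, exact permutation p 0.84). Cd3g was at 5.72, 5.94, 5.84, 6.26 and 5.71 in control, and at 5.26, 5.81 and 6.06 (lowest, median, highest) under inulin. Here 3 inulin mice (2, 3 and 6) lay below every control, and none above. The difference of -0.18 ± 0.16 (SE) did not pass (ratio 0.884, interval 0.692 to 1.13, limma adjusted p 0.68, exact permutation p 0.37).

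Cd4 and Cd8a encode the coreceptors of helper and of cytotoxic T cells. Cd4 was at 4.61, 4.24, 4.03, 4.46 and 4.11 in control, not far above the lower quartile of the arrays, and at 4.15, 4.43 and 5.09 under inulin. Inulin 5 alone exceeded the controls. The difference was 0.19 ± 0.16 (SE), a ratio of 1.14 (interval 0.899 to 1.44, limma adjusted p 0.65, exact permutation p 0.35), and it was 0.06 without inulin 5. Cd8a, the chain that forms CD8αα on many intraepithelial lymphocytes, was at 5.64, 5.85, 5.35, 5.88 and 5.49 in control and at 5.32, 5.70 and 6.05 under inulin. The control range held 4 of the inulin mice, with inulin 4 above it and inulin 6 below it. The ratio was 1.03 (interval 0.853 to 1.26), with a limma adjusted p of 0.91 and an exact permutation p of 0.74.

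Gzma and Gzmb encode granzymes A and B, serine proteases that killer lymphocytes release from granules. Gzma was at 5.69, 6.65, 5.78, 5.94 and 5.39 in control and at 5.33, 5.81 and 6.18 under inulin. Control 2 was the highest of all mice, and the control SD of 0.47 was the largest of the 9 genes in that group. The difference was -0.10 ± 0.20 (SE) (limma adjusted p 0.87, exact permutation p 0.69), and it turned to 0.09 without control 2. Gzmb was at 4.74, 5.40, 4.77, 4.79 and 4.45 in control and at 4.50, 5.26 and 5.70 under inulin. Inulin 1 and 4 lay above every control and none below. Its difference of 0.34 ± 0.21 (SE), a ratio of 1.27, was the largest of the 9 in size and did not pass (limma adjusted p 0.51, exact permutation p 0.19).

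Itgae encodes CD103, the αE chain of an integrin, and Cxcr6 a chemokine receptor of tissue-resident T cells whose ligand is Cxcl16. Itgae was at 5.44, 5.54, 5.30, 5.15 and 5.34 in control and at 4.96, 5.28 and 5.55 under inulin, with a ratio of 0.949 (interval 0.819 to 1.10, limma adjusted p 0.79, exact permutation p 0.49). Inulin 5 was the highest and inulin 3 the lowest of all mice for Itgae. Cxcr6 was at 4.17, 4.47, 4.44, 4.17 and 4.51 in control and at 3.93, 4.23 and 4.38 under inulin. Inulin 3 and 6 lay below the controls and near the lower quartile of the arrays. Its difference of -0.18 ± 0.096 (SE) had the smallest p of the 9, a ratio of 0.884 (interval 0.766 to 1.02), and did not pass (limma adjusted p 0.45, exact permutation p 0.13).

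Cd160 encodes a receptor of intraepithelial lymphocytes and NK cells that binds HVEM, the product of Tnfrsf14. It was at 4.60, 4.85, 4.68, 4.85 and 4.56 in control and at 4.37, 4.57 and 4.96 under inulin. Inulin 4 was above and inulin 1, 3 and 6 were below all controls. The difference was -0.13 ± 0.10 (SE), a ratio of 0.914 (interval 0.785 to 1.06, limma adjusted p 0.62, exact permutation p 0.29).

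With the mean of the fat markers as a covariate, the differences became -0.37 for Cd3e, -0.49 for Cd3g, -0.33 for Cxcr6 and -0.33 for Cd160, with limma adjusted p of 0.29, 0.26, 0.25 and 0.24. In that fit these 4 of the 9 genes had an unadjusted p under 0.05, from 0.0085 to 0.019, where 12.6% of all genes did. Gzmb was the 1 gene still higher under inulin, by 0.097 (unadjusted p 0.72, limma adjusted p 0.91). The fat marker mean largely followed diet. It was 4.97 to 5.52 in control, and only inulin 6, at 5.18, lay in that range, with every other inulin mouse above it. Because the diets shared so little of the fat range, this fit cannot separate a diet difference from one that goes with the fat markers. How far its differences rest on inulin 6 was not tested.

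In 5 lists of the wider T cell programme, limma called no gene past the threshold either. Over all genes 13.5% had an unadjusted p under 0.05. In T cell receptor signalling 0 of 26 measured genes passed in either direction and 0 had an unadjusted p under 0.05, 15 were higher and 11 lower, with a median difference of 0.01. The 2 with the smallest p were Trat1, an adaptor of the T cell receptor complex (-0.35 ± 0.17 SE, adjusted p 0.39), and Sh2d2a, an adaptor of the kinase Lck (0.17 ± 0.095 SE, adjusted p 0.45). The Trat1 means of 3.18 in control and 2.83 under inulin were under the arrays' lower quartiles. Cd3d, the third CD3 chain, named here after its values were seen, had a control mean of 4.35 ± 0.16 (SD, n = 5) and an inulin mean of 4.28 ± 0.15 (SD, n = 6).

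Killer lymphocyte genes passed in limma in 0 of 26 and 1 had an unadjusted p under 0.05, with 12 higher, 14 lower and a median of -0.03. Ncr1, an activating receptor of NK cells, was at 3.85 and 3.67 (-0.18 ± 0.072 SE, adjusted p 0.31), and Serpinb9, an inhibitor of granzyme B, at 4.87 and 4.66 (-0.21 ± 0.11 SE, adjusted p 0.41). The Ncr1 inulin mean was under the arrays' lower quartiles of 3.72 to 3.79. The other granzyme genes on the list, Gzmc, Gzmk and Gzmm, differed by 0.08, 0.08 and 0.06, and Prf1, which encodes the pore protein perforin, by -0.05. These 4 were chosen for their role after their values were seen. The Gzmc means of 3.19 in control and 3.26 under inulin were under the arrays' lower quartiles. The Gzmk means of 3.75 and 3.82 were near them.

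Helper and regulatory T cell genes passed in limma in 0 of 20, with 14 higher, 6 lower and a median of 0.05. An unadjusted p under 0.05 was found for 4 of these genes (3 higher, 1 lower), against 13.5% of all genes. Lrrc32, which encodes GARP, a surface anchor of latent TGF-β on activated regulatory T cells that endothelial cells and platelets also make, had the smallest p. It was at 4.57 to 4.77 in control and 4.80 to 5.12 under inulin, so its groups did not overlap, as held for 2.18% of all genes. The difference was 0.26 ± 0.065 (SE), with a limma adjusted p of 0.13. Endothelial markers, as a list mean, were at 4.50 to 4.77 in control and 4.63 to 5.78 under inulin, and their part in the Lrrc32 value was not tested. Ikzf2, which encodes the regulatory T cell factor Helios, differed by 0.27 ± 0.11 (SE, adjusted p 0.30). It was at 7.63 to 7.84 in control, and inulin 1 and 4 were highest at 8.34 and 8.24.

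Homing and residency genes passed in limma in 0 of 18 and 0 had an unadjusted p under 0.05, with 11 higher, 7 lower and a median of 0.02. Gpr55, a lipid receptor of gut T cells, differed by -0.24 ± 0.11 (SE, adjusted p 0.39) and the integrin gene Itga1 by -0.14 ± 0.093 (SE, adjusted p 0.54). Itgb7, whose product pairs with CD103, was at 4.98 in both diets (difference 0.0048 ± 0.14 SE). It was named for that role after its value was seen, as were Cdh1, Cxcl16 and Tnfrsf14 below.

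On the epithelial side, 0 of 20 measured ligands, receptors and growth factors passed in limma and 1 had an unadjusted p under 0.05, with 8 higher, 12 lower and a median of -0.02. Il15, the cytokine that sustains intraepithelial lymphocytes, had a control mean of 8.43 ± 0.10 (SD, n = 5) and an inulin mean of 8.24 ± 0.14 (SD, n = 6), a difference of -0.19 ± 0.075 (SE, limma adjusted p 0.30). Cxadr, an epithelial junction receptor, differed by 0.13 ± 0.060 (SE, adjusted p 0.39). The partners of the measured receptors differed by -0.09 for Cdh1 (E-cadherin, bound by CD103), 0.20 for Cxcl16 (bound by Cxcr6) and -0.07 for Tnfrsf14 (bound by CD160), with adjusted p from 0.58 to 0.72.

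The members were next compared with each other across the 11 mice. After the diet means were removed, all 36 pairs of the 9 genes had a Pearson r above 0, from 0.10 to 0.87 with a median of 0.54. This did not hold for every pair once the mice farthest from the median of a gene in the pair were left out. Then r was below 0 for Cxcr6 with Cd8a, Cd4, Cd3g and Gzma (-0.29, -0.29, -0.18 and -0.18). It was also below 0 for Gzma with Cd160 (-0.09) and Cd3g with Itgae (-0.04). An r above 0 was found in 50.5% of all pairs of the 18820 genes, and in 47.5% of the pairs of a member with any other gene. An exact permutation test that shuffled mice within diets, over all 86400 arrangements, gave an unadjusted p under 0.05 for 10 pairs, all with r above 0, and 1 pair passed Benjamini-Hochberg adjustment over the 36. The same test gave such a p with r above 0 in 4.07% of the pairs of a member with any other gene. The 36 pairs share genes and mice, so they are not independent. That pair was Gzma and Gzmb, with r = 0.87 (exact p 0.0006, adjusted p 0.020) and Spearman's rho = 0.90 (exact p 0.0006, adjusted p 0.021). Without the mice farthest from the median of Gzma, control 2 and inulin 6, r was 0.71.

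The next pairs joined the granzymes, CD3 and CD8. Cd3e and Gzmb had r = 0.83 and rho = 0.82 (exact p 0.0044 and 0.0067, adjusted 0.079 and 0.12), and r = 0.73 without inulin 4 and 6. Cd3e and Cd3g had r = 0.81 and rho = 0.75 (exact p 0.012 and 0.022, adjusted 0.11 and 0.14), and r = 0.77 without the same mice. Cd8a and Gzmb had r = 0.75 and rho = 0.71 (exact p 0.013 and 0.023, adjusted 0.11 and 0.14), and r = 0.61 without them. The other pairs with an exact p of r under 0.05 changed as follows when their farthest mice were left out. From 0.71, r fell to 0.37 for Cd3e and Cd8a, 0.31 for Cd3g and Gzmb and 0.44 for Cd8a and Cd160. It fell from 0.66 to 0.47 for Cd3e and Cxcr6. It rose from 0.60 to 0.64 for Cd3e and Gzma and from 0.67 to 0.87 for Cd3e and Itgae. Cd4 had r of 0.61 with Itgae, 0.57 with Cd3e and 0.57 with Cd3g (exact p 0.079, 0.11 and 0.098, adjusted 0.18, 0.20 and 0.20). Its r was 0.10 to 0.19 with Gzma, Gzmb, Cd8a, Cxcr6 and Cd160. Cd8a was as low with Itgae (r = 0.13) and Cxcr6 (r = 0.20). Without the farthest mice, Cd4 had r of 0.32 with Itgae, 0.71 with Cd3e and 0.49 with Cd3g, and -0.29 to 0.33 with the other genes. Within the inulin mice its r with Cxcr6 was 0.66, beside 0.64 to 0.86 with Itgae, Cd3e and Cd3g. Whether the r of Cd4 differ was not tested.

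Inulin 6 was among the lowest 3 mice for 7 of the 9 genes and inulin 3 for 6, where 25.3% and 25.4% of all genes put these mice there. Inulin 4 was the highest of all mice for 3 genes (Cd3e, Cd8a and Cd160), as it was for 11.2% of all genes. Control 2 was among the top 3 for 7 of the 9, and for 26.3% of all genes.

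**Figure D3:**
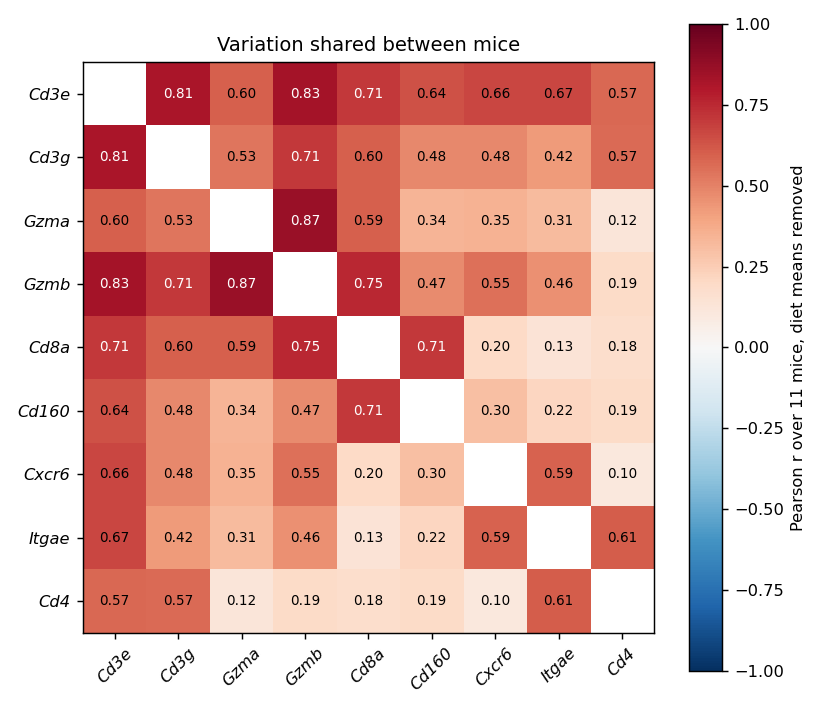
Pearson r over 11 mice, after removal of the diet means, for each pair of genes (colour scale from -1 to 1, values printed in the cells). The upper left block of Cd3e, Cd3g, Gzma, Gzmb and Cd8a holds r from 0.53 to 0.87, while the Cd4 row holds r of 0.10 to 0.19 with Gzma, Gzmb, Cd8a, Cd160 and Cxcr6 and of 0.57 to 0.61 with Cd3e, Cd3g and Itgae. The smallest exact permutation p of r in the Cd4 row is 0.079.

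The windows upstream of the granzyme and CD3 genes are shown because each pair encodes related proteins and the granzyme pair was the 1 that passed the adjusted test. Each is the 250 bases before the start of transcription in RefSeq (GRCm38.p6), on the minus strand in all 4 cases, 5′ to 3′. They lie at chr13:113100982-113101231 for Gzma, chr14:56262335-56262584 for Gzmb, chr9:45009612-45009861 for Cd3e and chr9:44980432-44980681 for Cd3g. Capitals mark the letters TGTGGT, the core read by Runx factors, on either strand (ACCACA on the opposite one).
Gzma: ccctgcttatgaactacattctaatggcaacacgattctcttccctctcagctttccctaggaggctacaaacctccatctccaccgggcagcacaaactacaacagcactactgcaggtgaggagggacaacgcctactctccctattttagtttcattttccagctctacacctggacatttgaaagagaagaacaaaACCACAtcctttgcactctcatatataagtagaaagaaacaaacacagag
Gzmb: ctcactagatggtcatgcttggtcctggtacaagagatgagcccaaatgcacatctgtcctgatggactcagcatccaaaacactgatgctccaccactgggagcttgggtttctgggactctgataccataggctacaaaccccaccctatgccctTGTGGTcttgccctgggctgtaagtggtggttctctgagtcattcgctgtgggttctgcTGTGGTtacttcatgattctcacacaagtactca
Cd3e: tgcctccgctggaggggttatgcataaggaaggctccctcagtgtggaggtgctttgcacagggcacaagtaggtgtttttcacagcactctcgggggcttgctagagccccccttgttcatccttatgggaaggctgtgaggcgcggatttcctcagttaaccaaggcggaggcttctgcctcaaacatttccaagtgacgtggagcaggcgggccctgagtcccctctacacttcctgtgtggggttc
Cd3g: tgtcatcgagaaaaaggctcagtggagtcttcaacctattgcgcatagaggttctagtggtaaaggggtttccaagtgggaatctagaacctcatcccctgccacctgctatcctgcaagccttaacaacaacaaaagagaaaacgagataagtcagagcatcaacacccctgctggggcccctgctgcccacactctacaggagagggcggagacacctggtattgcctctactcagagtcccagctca

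The RefSeq windows matched 8 of the 10 genes by symbol, with 10 windows in all (without Cd4 and Itgae). TGTGGT occurred in 5 of the 10 windows, those of Gzma, Gzmb and Cxcr6 and both of Cd160, against 14.0% of all 32851 windows of the same length. Gzma held it once, starting 50 bases before the start site, and Gzmb in 2 places, 93 and 34 bases before it. The E-box letters CANNTG occurred in 9 of the 10 windows and in 66.2% of all windows. A match is only a description of the letters, and the motifs were picked after the values were seen. Runx3, which encodes the Runx factor of CD8 and cytotoxic T cells, differed by -0.14 ± 0.15 (SE, limma adjusted p 0.73). It was named for that role after its value was seen.

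Since the granzyme genes varied together while their diet differences had opposite signs, the difference between them was taken within each mouse. Gzmb minus Gzma was -0.94, -1.25, -1.02, -1.15 and -0.93 in control mice 1 to 5, and -0.48, -0.63, -0.88, -0.21, -0.68 and -0.83 in inulin mice 1 to 6. Every inulin mouse lay above every control mouse. The means were -1.06 ± 0.14 (SD, n = 5) and -0.62 ± 0.25 (SD, n = 6), a difference of 0.44 with a two-sided exact permutation p of 0.0065. Taken over the 36 pairs of the 9 genes the adjusted p was 0.23, so the difference did not pass. This was 1 of 36 pairs without overlap (2.78%), near the 2.29% of all pairs of the 18820 genes. Of the 36, 5 had an unadjusted exact permutation p under 0.05, against 4.86% of the pairs of a member with any other gene. All 5 hold Gzmb, so they are not independent, and the 4.86% is pooled over the 9 members rather than for Gzmb alone. The difference ran from 0.36 to 0.49 when any 1 mouse was left out.

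**Figure D4:**
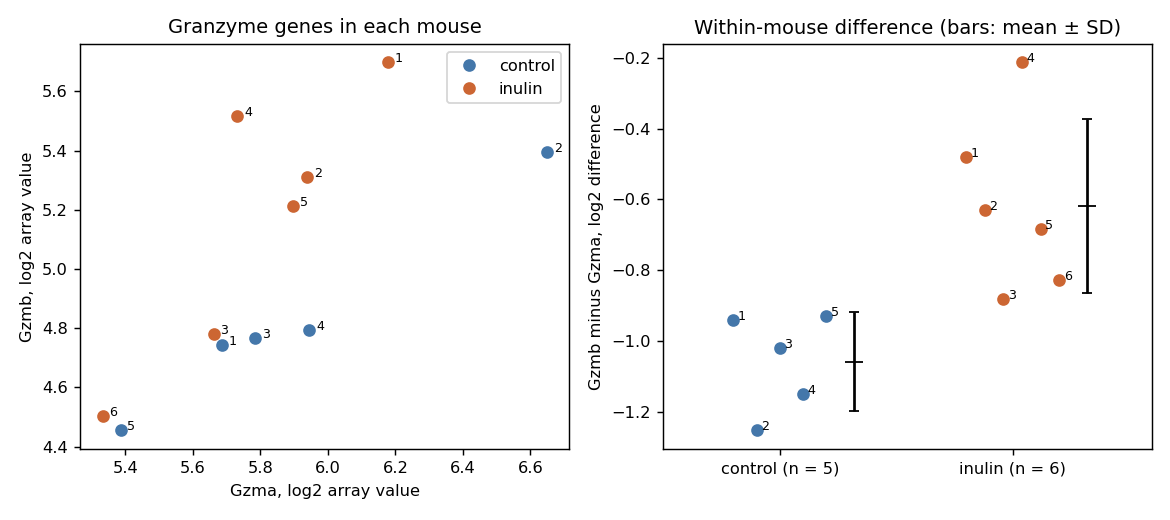
Left, Gzmb against Gzma (log2 array values) in each mouse, control in blue and inulin in orange, with mouse numbers. Right, Gzmb minus Gzma in each mouse with mean ± SD as black bars. The 5 control mice lie between -1.25 and -0.93 and the 6 inulin mice between -0.88 and -0.21.

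T cells also lie in the lymphoid follicles of the colon among B cells, so the genes were set against the mean of 11 B cell and follicle markers, which include Cd79a, Cd79b, Ms4a1 and Cr2. With the diet means removed, Cd4 had r = 0.89 and rho = 0.86 with these markers (exact p 0.0031 and 0.0018). Over the 36 relations of 9 genes with 4 marker lists (B cell and follicle, epithelium, fat and macrophage) the adjusted p was 0.11 for r and 0.048 for rho. Without control 4 and inulin 5, the mice farthest from the median of the markers, r was 0.74, and within the 6 inulin mice it was 0.95. With the same markers r was 0.60 for Cd3g, 0.47 for Itgae and 0.44 for Cd3e (adjusted p 0.37, 0.53 and 0.60), and -0.0044 for Cd8a, 0.14 for Gzmb, 0.22 for Gzma, 0.13 for Cxcr6 and 0.098 for Cd160. Whether these values differ from that of Cd4 was not tested.

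Inulin 5, with its high follicle markers, had the highest Cd4 and Itgae, while its Cd8a of 5.57 and its Gzma of 5.90 lay within the control range. Cd8b1, which encodes the other CD8 chain, was also highest there, at 5.35 against 4.64 to 5.01 in the other mice. So were Cd2 and Cd5 of the T cell receptor signalling list, at 5.05 and 5.40 against 3.89 to 4.63 and 4.41 to 4.88 in the other mice. Cd8b1, Cd2 and Cd5 were named after their values were seen. The CD3 genes were not highest in inulin 5. Cd3d was at 4.47 there against 4.56 in control 5, Cd3e at 6.59 against 6.67 in inulin 4, and Cd3g at 6.06 against 6.26 in control 4. The B cell and follicle list itself had 6 genes higher and 5 lower under inulin, with a median difference of 0.03. With its mean as a covariate Cd4 differed by 0.19 (unadjusted p 0.042, limma adjusted p 0.30). In that fit 1 of the 9 genes had an unadjusted p under 0.05, as did 15.2% of all genes.

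**Figure D5:**
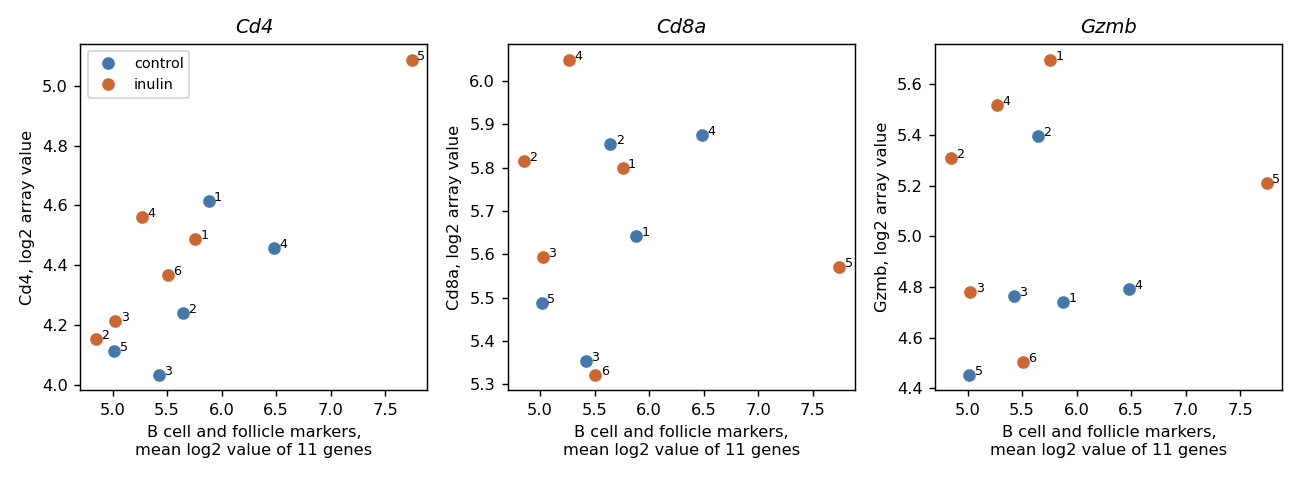
Log2 array values of Cd4, Cd8a and Gzmb (vertical axes) against the mean log2 value of 11 B cell and follicle markers (horizontal axes) in control (blue) and inulin (orange) mice, with mouse numbers. Cd4 climbs with the markers up to inulin 5 at 7.74 and 5.09, while Cd8a and Gzmb of that mouse lie at 5.57 and 5.21.

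Of the other marker lists, macrophage markers, whose mean was also highest in inulin 5, had r = 0.82 and rho = 0.75 with Cd4 (exact p 0.012 and 0.0091, adjusted 0.15 and 0.082), and r = 0.43 without control 4 and inulin 5. The same markers had r = 0.67 and rho = 0.80 with Cd3g (exact p 0.011 and 0.0027, adjusted 0.15 and 0.048), and r = 0.92 without control 4 and inulin 5. With Cd3e, Itgae, Cxcr6, Gzma, Gzmb, Cd160 and Cd8a, macrophage markers had r of 0.62, 0.56, 0.48, 0.28, 0.28, 0.21 and 0.10. The exact permutation adjusted p of these was 0.40 to 0.91. Without control 4 and inulin 5 they became, in the same order, 0.90, 0.58, 0.665, 0.63, 0.89, 0.33 and 0.82. Fat markers had r = 0.69 and rho = 0.82 with Cd160 (exact p 0.037 and 0.0057, adjusted 0.33 and 0.069), and r = 0.65 without inulin 4 and 5. Their r was 0.76 with Cd3e, 0.65 with Cd3g, 0.58 with Cd4 and 0.56 with Cxcr6 (exact permutation adjusted p 0.37 to 0.40). Without inulin 4 and 5 these became 0.43, 0.40, -0.15 and 0.20. With the remaining genes r was 0.21 to 0.48. Epithelium markers had r between -0.07 and 0.49 with the 9 genes, and no adjusted p below 0.49 for r.

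Last, the genes most like each member across mice were listed as a description. Each member was correlated with the 18819 other genes over 11 mice with the diet means removed. The 3 highest are given, leaving out predicted genes, clone-named genes, olfactory receptor genes and small RNAs. A gene left out may therefore lie higher. The genes were picked as the highest, so no test applies. Gzmb was closest to Krt27, Ccl5 and Adamdec1 (r = 0.98, 0.95 and 0.93), of which Ccl5 encodes a chemokine stored by cytotoxic lymphocytes. Ccl5 itself had a control mean of 7.29 ± 0.27 (SD, n = 5) and an inulin mean of 7.13 ± 0.29 (SD, n = 6). Gzma was closest to Rimbp3, Tbx2 and Sdcbp (r = 0.90, 0.90 and 0.89). Cd8a was closest to Acnat1, Pkp4 and Aup1 (r = 0.93 for each), and Cd3g to Car1, Sulf2 and Sema7a (r = 0.96, 0.96 and 0.95). Cd4 was closest to Gfra2, Arhgdib and Rnase6 (r = 0.94, 0.93 and 0.92), and Cd3e to Pdgfra, Cxcl12 and Pex6 (r = 0.95, 0.94 and 0.94). The last list holds Pdgfra and Cxcl12, genes of stromal cells. Cxcr6 was closest to Slc10a4, Themis3 and Efna1 (r = 0.94, 0.93 and 0.92), Itgae to Bcl10, Hoxc10 and Ahi1 (r = 0.92, 0.91 and 0.90), and Cd160 to Inpp4a, Rxra and Ptprd (r = 0.97, 0.95 and 0.94).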

How the data were processed

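The values are log2 array values, 1 array per mouse, deposited by the authors as a single table and made with RMA per the submitters' processing notes. This method corrects background, makes array distributions alike and summarises probes per probe set. The sources used here give no RMA version, genome build or definition of the probe sets. No scanner intensities were used, so no value could be set against background, and the number of arrays limits the precision. Of 35556 probe sets, 21218 had 1 symbol in the platform annotation. They gave 18820 genes, each represented by its probe set with the highest mean.

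The diets were compared in R 4.3.3 with limma 3.58.1 (lmFit and eBayes, inulin minus control, 11 mice, no covariate), with Benjamini-Hochberg adjustment over 18820 genes and a threshold of 0.05. Exact permutation tests were two-sided, with a smallest possible p of 0.0022 between diets. No batch, cage or scan date is in the labels, so none was tested. The members and lists were chosen with earlier results of these data known. Named genes are the members, the 2 of each list with the smallest p, and the 3 most like each member after the omissions given above. Others are said to be chosen afterwards. Relations with marker lists and within-mouse differences were added after the values were seen. The fit and the correlations were tested on simulated data.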

Additional observations from a re-analysis of the deposited data

Results flagged for a closer look

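Of the 9 lymphocyte genes, checked in each diet for a mouse far from the rest of its group, none was flagged. Among the means of the gene lists, 7 were, where chance flags about 1 group in 20 and 36 groups were checked. In 4 lists inulin 5 lay far above the other inulin mice: B cell and follicle markers at 7.74 against a next highest of 5.76, macrophage markers at 6.20 against 5.32, homing genes at 5.55 against 5.07, and epithelial partners at 7.66 against 7.42. The other flags were control mice far from the rest of their group, control 3 with low dendritic markers (3.71) and high smooth muscle markers (5.74), and control 4 with high fat markers (5.52).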

How the results depend on the processing

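In limma 0 of the lymphocyte genes passed under any of 25 alternatives, in which 9 genes were measured, or 6 where genes below the 40th percentile of mean value were left out. Of 222 values of single genes, 51 were the same as in the reported fit because the setting acts only on the test or the genes tested, or because a gene has 1 probe set. Of the other 171, 161 kept their direction and 10 did not. The replicate block repeats the values without inulin 6, which has no control of its number. Cd3e was at 0.0098 with quantile normalization, 0.065 with the replicate block and without inulin 6, 0.020 without control 2 and 0.026 without inulin 3. Cd8a was at -0.023 without control 3, -0.022 without inulin 4 and -0.11 with the fat covariate. Cd4 was at -0.083 with the fat covariate, and Gzma at 0.090 without control 2. Leaving out each mouse, Cd3e ran from -0.11 to 0.065, Cd8a from -0.023 to 0.12 and Gzma from -0.23 to 0.090. The cause of these turns was not tested. Gzmb minus Gzma within mice was 0.41 with quantile normalization and 0.41 without inulin 3, 4 and 5 (exact permutation p 0.0087 and 0.018, chosen after seeing the data).

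The count of all genes past the threshold, 17, was 42 with a variance prior following mean value, 245 with array weights, 52 without low genes, 62 with median centring, 7 over all probe sets and 33 without inulin 3, 4 and 5. It was 37, 109 and 45 with the fat, B cell and epithelium covariates, and 130 at a threshold of 0.1. Leaving out 1 mouse gave 7 (without control 1 or 2) to 98 (without inulin 5), and only leaving out inulin 4 kept it within 1.5 times. With the replicate number as a block 95 genes passed, against 50 without inulin 6 and with no block. In the block fit Gzmb differed at a limma unadjusted p of 0.017 (adjusted 0.22). In that fit 1 of the 9 genes had an unadjusted p under 0.05, as did 15.5% of all genes. Deviations of same-numbered mice correlated at -0.10 to 0.22, and 2 of 5 controls were closest to the inulin mouse of their number. With 5 pairs these values cannot decide whether the numbers pair the mice.

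With 11 arrays the 95% intervals of the 9 genes lay between 0.692-fold (the lower bound of Cd3g) and 1.74-fold (the upper bound of Gzmb).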

Other observations

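Other immune cells of the same scrapings are given here as values, 0 of their markers having passed in limma. Over all genes 13.5% had an unadjusted p under 0.05, and 51.4% were higher under inulin. Plasma cell markers were higher under inulin in 5 of 6 genes (2 with an unadjusted p under 0.05): Prdm1, which encodes the plasma cell factor Blimp-1 and is also active in gut epithelium, differed by 0.81 ± 0.18 (SE, adjusted p 0.087) and Jchain, the joining chain of IgA, by 0.64 ± 0.24 (SE, adjusted p 0.27). Mast cell markers were lower in 6 of 8 (3 with an unadjusted p under 0.05), led by the mucosal mast cell proteases Mcpt2 (-1.04 ± 0.21 SE, adjusted p 0.071) and Mcpt1 (-0.69 ± 0.18 SE, adjusted p 0.15). The mast cell list mean was 4.55 to 4.75 in control and 4.22 to 4.49 under inulin. Macrophage markers were higher in 9 of 10 (1 with an unadjusted p under 0.05), with Cd163 at 0.25 and Mrc1 at 0.18 (adjusted p 0.15 and 0.53). The Cd163 control mean of 3.53 was under the arrays' lower quartiles, and its inulin mean of 3.78 lay among them.

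Dendritic cell markers were higher in 5 of 6 (1 with an unadjusted p under 0.05), with Zbtb46 at 0.18 and Xcr1 at -0.11. Neutrophil markers were higher in 2 of 5 (0 with an unadjusted p under 0.05), with S100a8 at 0.10 and S100a9 at -0.08. The S100a8 means of 3.31 in control and 3.42 under inulin were under the arrays' lower quartiles. In the B cell and follicle list (0 of 11 with an unadjusted p under 0.05) Cxcr5 was at 0.15 and Cr2 at -0.16. Of the tissue markers, Krt20 (epithelium) differed by 0.30 and Car1 by 0.10, Cidec and Fabp4 (fat) by 1.36 and 1.94, Ctrb1 and Clps (pancreas) by 2.40 and -0.69, Dcn and Col3a1 (fibroblast) by 1.06 and 0.28, Kdr and Esam (endothelium) by 0.48 and 0.38, and Tagln and Acta2 (smooth muscle) by 0.37 and 0.54.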
